A study of Sus scrofa with 12 samples.

Results

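Microglia are the resident macrophages of the brain, and 34 genes that describe their resting identity, their complement genes and their phagocytic and activated states were followed in striatum of newborn piglets after deep hypothermic circulatory arrest (DHCA; the labels call it cardiac arrest). The genes were chosen by name. Of the 34 names, 30 stood in the authors' deposited table of named genes and were followed, out of 25880 gene IDs in the count table. TMEM119, OLFML3, ITGAM and C3AR1 did not stand there under these names and were dropped. All 30 genes had counts in each of the 12 libraries and passed the filter on low counts, as did 13974 other genes.

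Striatal RNA came from 6 sham and 6 DHCA newborn piglets. Sham piglets were kept under 4% isoflurane. DHCA piglets had the same anaesthetic, then a median sternotomy, cardiopulmonary bypass, cooling to 18 °C, 30 min of arrest, rewarming to 37 °C on bypass and 6 h of recovery. Surgery, bypass, cooling and arrest differed together between the groups, so their parts cannot be told apart, and the labels give no recovery time for sham.

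In a healthy brain, microglia depend on the growth factor receptor CSF1R and the transcription factors SPI1 (PU.1) and SALL1. They sense neurons and released nucleotides through the fractalkine receptor CX3CR1 and the purine receptors P2RY12 and P2RY13. After injury they can lower these receptors and raise phagocytic and lipid-handling genes such as SPP1, GPNMB and LPL, a shift in which the receptor TREM2 and its signalling adaptor TYROBP take part. C1q, built from the products of C1QA, C1QB and C1QC, starts the classical complement cascade and tags debris and synapses for removal. In a piece of tissue, fewer microglia and less RNA per microglial cell cannot be told apart.

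Library totals ranged from 1377809 to 12933536 counts. The shallowest libraries, Sham 5 and Sham 1, also had the lowest mitochondrial share, 7.30% and 4.01% of their counts, while the other 10 libraries had 10.6% to 26.3%. Sham 4 had 0.0170% of its counts in 10 spiny projection neuron markers, which mark the main striatal neuron type, against 0.205% to 0.609% in the other 11 libraries. Beside many genes stand values from fits without these or other libraries, though not from every such fit. The ranges of genes near 0 stand with the other alternatives.

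Levels are given as CPM, counts scaled to a common library size, after TMM, an adjustment for library composition. A fold change is DHCA minus sham on the log2 scale. At 6 h after DHCA, 0 of the 30 microglial genes passed the edgeR quasi-likelihood test at an adjusted p of 0.05, where 0.186% of the 14004 tested genes did. The homeostatic receptor gene CX3CR1 had the largest difference, -1.26 (SE 0.40), and TYROBP, which had 0.87 (SE 0.34), was the only member whose groups did not overlap (1 of 30, against 0.993% of tested genes in either direction). SALL1 (-0.62, SE 0.17), TREM2 (-0.62, SE 0.23), MERTK (-0.46, SE 0.18) and AIF1 (-0.43, SE 0.19) were the others with an unadjusted p under 0.05. The complement genes C1QA, C1QB, C1QC and C3 lay between -0.14 and 0.18.

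At an unadjusted p under 0.05 stood 6 of the 30 members, where 7.9% of all tested genes did. Of these, 1 was higher in DHCA, against 3.43% of tested genes, and 5 were lower, against 4.47%. The DESeq2 Wald test called 1 member, SALL1, lower (adjusted p = 0.041; it called 1.1% of genes), and limma-voom called 0 members (0.193% of genes). Fitted values lay above 0 for 13 members and below 0 for 17. Their median was -0.12, where that of all tested genes was -0.003. Without Sham 1 and Sham 5 the median of the members was 0.11, and without Sham 1, Sham 4 and Sham 5 it was -0.045.

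**Figure D1:**
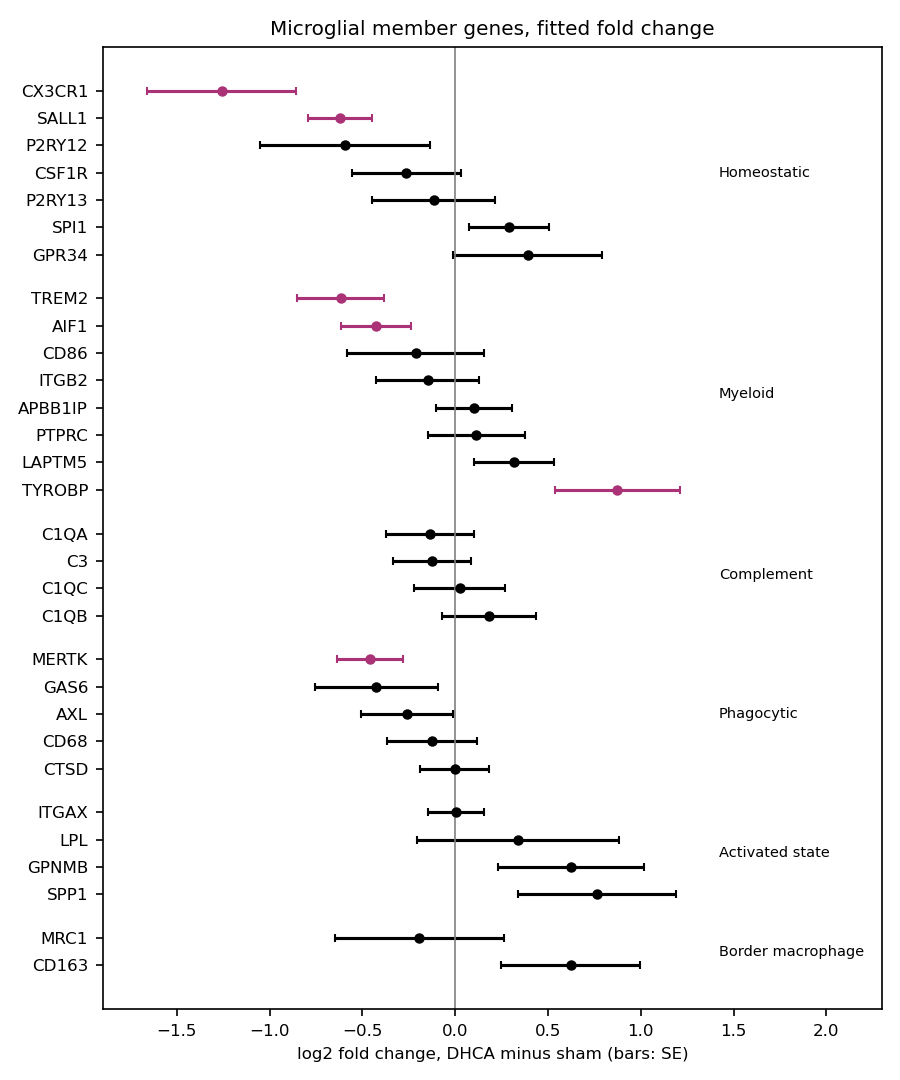
Fitted log2 fold change (DHCA minus sham, x axis) of the 30 members, grouped by role, with bars of 1 SE; purple marks an unadjusted edgeR p under 0.05. CX3CR1 at -1.26 and TYROBP at 0.87 lie at the ends of the plot, and the 4 complement genes lie between -0.14 and 0.18.

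The homeostatic genes that define microglia had counts in every library, except that TMEM119 and OLFML3 were not analysed here. CX3CR1 (ENSSSCG00000024024, chromosome 13, 23944369 to 23957486, Sscrofa11.1) had 5.43 CPM in the lowest sham library, a median of 19.7 and 37.8 in the highest. In DHCA the lowest, median and highest values were 3.67, 10.2 and 14.4 CPM. Sham 1 lay at the low end of its group, and the other 5 sham libraries, at 15.98 CPM and above, all exceeded the highest DHCA library. The group means were 21.3 ± 11.3 and 9.10 ± 4.01 CPM (SD, n = 6 per group). The edgeR adjusted p was 0.365, and the 95% interval of the log2 difference was -2.12 to -0.40. Without Sham 1 the difference was -1.46 (edgeR adjusted p = 0.122), and without Sham 1, Sham 4 and Sham 5 it was -1.73. Leaving out any 1 of the 12 libraries gave -1.46 to -1.01, with unadjusted edgeR p under 0.05 in all 12 fits.

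SALL1, a zinc-finger factor that keeps microglial identity and that other cells of the developing brain can also express (ENSSSCG00000002836, chromosome 6, 33732003 to 33750098), ranged from 43.9 to 81.2 CPM in sham with a median of 60.3. In DHCA it ranged from 32.1 to 46.1 CPM with a median of 39.0. Only Sham 6 lay within the DHCA range, and 4 DHCA libraries lay below all of sham. The fold change was -0.62 with all libraries, -0.70 to -0.53 without any 1, and -0.45 without Sham 1, Sham 4 and Sham 5. SALL1 had the smallest edgeR adjusted p of the members, 0.235, and the 95% interval was -0.99 to -0.26. In the authors' deposited table it is the only member with an adjusted p under 0.05 (0.0149, log2 fold change -0.61), where 1.29% of the genes with an adjusted p have one.

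The purine receptor genes and GPR34, a lysophosphatidylserine receptor gene of resting microglia, did not share one direction. P2RY12 (chromosome 13, 91427197 to 91572170) ranged from 3.49 to 39.9 CPM in sham and from 5.30 to 25.3 CPM in DHCA, with medians of 21.6 and 13.1. The groups overlapped, and the lowest of the 12 libraries was Sham 1 and the highest Sham 2. Its fold change was -0.59 (SE 0.46, edgeR adjusted p = 0.804). Without Sham 2 it was -0.32, without Sham 1 and Sham 5 it was -0.92, and without Sham 1, Sham 4 and Sham 5 it was -1.08. The last 2 of these fits had an unadjusted edgeR p under 0.05, and 0 of the 12 fits without 1 library did. P2RY13, which lies within the span of P2RY12 and shares 0 exon bases with it, had -0.12 (SE 0.33). GPR34 (chromosome X, 37306507 to 37313923) had medians of 7.87 CPM in sham and 13.8 CPM in DHCA and a fold change of 0.39 (SE 0.40). Leaving out 1 library moved it between 0.17 (without DHCA 6) and 0.83 (without Sham 2, the only such fit with an unadjusted p under 0.05). It was -0.099 without Sham 1, Sham 4 and Sham 5.

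CSF1R, the growth factor receptor gene, and SPI1, the lineage factor gene, did not pass the test. CSF1R (chromosome 2, 151099084 to 151129407) ranged over 62.1 to 229 CPM in the sham and 68.1 to 139 CPM in the DHCA libraries. The value of 229 CPM is that of Sham 1, and without that library the fold change went from -0.26 (SE 0.29) to -0.00085. Of its 6666 exon bases, 42.2% are shared with HMGXB3 on the other strand, and the counting command sets no strand option, so reads of the 2 genes cannot be told apart there. SPI1 had 0.29 (SE 0.22), with medians of 7.81 and 9.72 CPM, and 0.18 without DHCA 4 or 0.16 without Sham 1, Sham 4 and Sham 5. As a sum, the homeostatic genes took 0.0181% to 0.0324% of counts in sham and 0.0155% to 0.0236% in DHCA. CSF1R (9358 counts over the 12 libraries) and SALL1 (4184) weighed most in this sum, and P2RY12 came next with 1818.

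**Figure D2:**
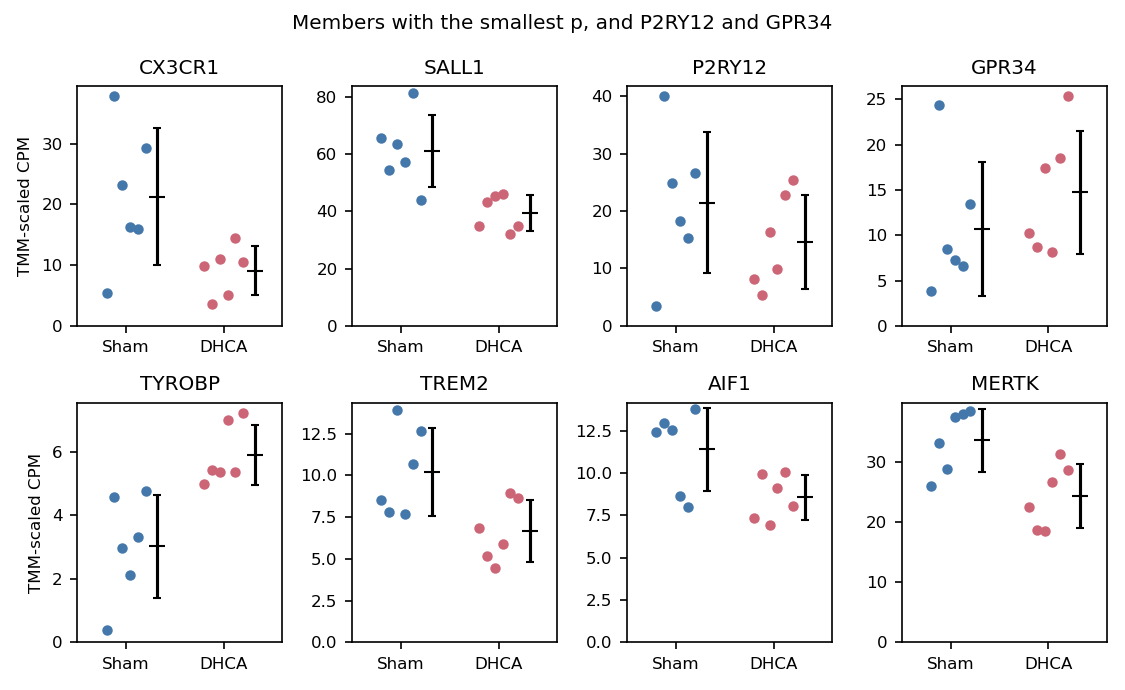
TMM-scaled CPM (y axis) of 8 members in the 6 sham and 6 DHCA libraries; each point is a library and the black bar is the mean with 1 SD. The TYROBP points of DHCA lie at 5.00 to 7.21 CPM, above all sham points, while every other gene shown overlaps between the groups.

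TYROBP and TREM2 encode a signalling adaptor and a receptor that works through it, and their fold changes had opposite signs. TYROBP (ENSSSCG00000002919, chromosome 6, 45309201 to 45312539) was at 0.388 CPM in the lowest sham library, 3.15 at the median and 4.76 in the highest. In DHCA it was at 5.00, 5.41 and 7.21 CPM. The groups did not overlap, which was found upward in 0.678% of all tested genes. The lowest sham value rests on 1 count in Sham 1, and Sham 5 had 5 counts. The fold change of 0.87 had a 95% interval of 0.15 to 1.597 and an edgeR adjusted p of 0.501. Without Sham 1, Sham 4 and Sham 5 it was 0.50 and no longer had an unadjusted p under 0.05.

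TREM2 (ENSSSCG00000039270, chromosome 7, 36464034 to 36471393) ranged from 7.68 to 13.9 CPM in sham and from 4.46 to 8.95 CPM in DHCA, with medians of 9.59 and 6.39. Of the DHCA libraries, 4 lay below all of sham. The fold change was -0.62 (95% interval -1.12 to -0.12, edgeR adjusted p = 0.486), and -0.78 without Sham 1, Sham 4 and Sham 5. Leaving out 1 library kept the unadjusted edgeR p under 0.05 in 10 of 12 fits for TREM2 and in 12 of 12 for TYROBP.

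Among the general myeloid genes, AIF1 (which encodes the cytoskeletal protein IBA1, the usual histological marker of microglia) was at a median of 12.5 CPM in sham and 8.59 CPM in DHCA. Its groups overlapped, and its edgeR adjusted p was 0.588. The unadjusted edgeR p stayed under 0.05 in 6 of the 12 fits that left out 1 library. The AIF1 fold change was -0.43, and -0.61 without Sham 1, Sham 4 and Sham 5. LAPTM5, a lysosomal membrane protein gene of blood cells and microglia, had medians of 32.6 and 41.9 CPM and a fold change of 0.31 (SE 0.22). Without Sham 1 it was 0.19, and without Sham 1, Sham 4 and Sham 5 it was 0.073. PTPRC, the leukocyte phosphatase CD45, had 0.11 (SE 0.26), and APBB1IP, an adaptor for integrin activation, had 0.10 (SE 0.21). Leaving out 1 library moved APBB1IP between 0.014 (without DHCA 3) and 0.27 (without Sham 1). The integrin subunit gene ITGB2 had -0.15 (SE 0.28), and the sign turned to 0.15 without Sham 1, in which ITGB2 stood at 50.02 CPM against 13.4 to 24.4 in the other sham libraries. CD86, a co-stimulatory molecule gene, had -0.21 (SE 0.37) at 1.08 to 4.65 CPM. The highest value is that of Sham 1, without which the fold change was -0.029, and without DHCA 5 it was -0.37.

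The fold changes of the 4 complement genes lay between -0.14 and 0.18, with a median of -0.05. C1QA, C1QC and C1QB follow one another on chromosome 6 between 80586183 and 80608011. Mean levels in sham and DHCA were 39.4 ± 11.9 and 44.7 ± 12.5 CPM for C1QB, 35.9 ± 11.4 and 36.6 ± 9.53 CPM for C1QC, and 24.1 ± 7.60 and 21.6 ± 5.45 CPM for C1QA (SD, n = 6 per group). Sham 4 and DHCA 3 were the lowest of their groups for all 3 subunits, and the ranges of the groups overlapped. The 95% intervals of the log2 differences were -0.65 to 0.37 for C1QA, -0.36 to 0.73 for C1QB and -0.51 to 0.55 for C1QC. C3, the central component cleaved by the cascade, had -0.12 (95% interval -0.57 to 0.32), with 53.6 to 88.5 CPM in sham and 42.3 to 95.5 CPM in DHCA. Leaving out 1 library gave -0.25 to -0.022 for C1QA, 0.027 to 0.30 for C1QB and -0.24 to -0.016 for C3, and C1QC took both signs. The gene ID that the reference table names C3AR1, the receptor of the C3a fragment, was not counted as a member. It had 3.10 to 9.81 CPM in sham and 5.20 to 9.24 CPM in DHCA (log2 fold change 0.39, SE 0.28).

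Of the phagocytic genes, MERTK encodes a receptor for apoptotic cells and is also made by astrocytes. Its sham libraries held 26.0 to 38.4 CPM (median 35.2) and its DHCA libraries 18.4 to 31.3 CPM (median 24.5), and 3 DHCA libraries lay below all of sham. Its edgeR adjusted p was 0.497 and the 95% interval -0.84 to -0.081, and the unadjusted p stayed under 0.05 in 11 of 12 fits without 1 library. The 8 astrocyte markers took 0.562% to 0.703% of counts in sham and 0.482% to 0.801% in DHCA, and their part in the MERTK values was not tested. The related receptor gene AXL had -0.26 (SE 0.25) and GAS6, the bridging ligand of both receptors, -0.42 (SE 0.33). Sham 1 was the highest of the 12 libraries for AXL (173 CPM) and GAS6 (58.9 CPM), and without it the values were -0.053 and -0.21. GAS6 was -0.056 without Sham 1, Sham 4 and Sham 5. The lysosomal genes CD68 and CTSD had -0.13 (SE 0.24) and -0.0037 (SE 0.19). The unadjusted edgeR p of CD68 was 0.83, larger than its SE would give. CD68 shares 7.23% of its exon bases with EIF4A1.

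The 4 activated-state genes all had positive fold changes, as did 49.5% of all tested genes, while all 5 phagocytic genes had negative ones. Of the 4, ITGAX lay near 0 and changed sign in 8 of 20 alternatives. With all libraries, 0 of 4 passed at an unadjusted edgeR p of 0.05. SPP1, which encodes osteopontin, ranged from 13.2 to 47.6 CPM in sham and from 18.5 to 113 CPM in DHCA. DHCA 3 held the highest value and DHCA 2 the next, at 63.9 CPM, and the other 4 DHCA libraries lay within the sham range. The fold change was 0.77 (SE 0.43). Leaving out 1 library moved it between 0.34 (without DHCA 3) and 0.98 (without Sham 2). GPNMB, a glycoprotein gene of lysosome-loaded phagocytes, had medians of 1.08 and 1.87 CPM (0.62, SE 0.39). Its fold change was 0.40 without DHCA 5 and 0.95 without Sham 6. SPP1 and GPNMB each had an unadjusted edgeR p under 0.05 in 1 of the 12 fits without 1 library. LPL, lipoprotein lipase, was at 6.96 CPM in Sham 4, the library with few spiny neuron markers, and at 232 to 424 CPM in the other 11 libraries. Its fold change was 0.34 (SE 0.54), and 0.071 without Sham 4. It was 1.02 with limma-voom. The gene that the authors' deposited table names ITGAX is named ITGAM in the reference table and spans 17653 exon bases, so which integrin it counts is uncertain. It had 0.0046 (95% interval -0.32 to 0.33), the narrowest interval of the 30 genes.

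CD163 and MRC1, scavenger receptor genes of macrophages at the vessels and meninges, were the lowest members with GPNMB and CD86. CD163 had 0.809 to 4.39 CPM in sham and 2.42 to 5.98 CPM in DHCA (0.62, SE 0.38), and MRC1 0.539 to 3.27 and 0.941 to 3.71 CPM (-0.19, SE 0.45). In Sham 5 they had 2 and 1 counts. Without Sham 6 the fold change of CD163 was 0.95, and that of MRC1 was 0.026. Without Sham 3 that of CD163 was 0.42. CD163 had an unadjusted edgeR p under 0.05 in 1 of the 12 fits without 1 library.

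Per exon length, members differed widely in level. Mean RPKM, which is the TMM-scaled CPM divided by the exon length in kilobases, over the 12 libraries was 64.9 for LPL, 23.1 for CTSD, 22.4 for AXL, 17.01 for CSF1R, 16.3 for LAPTM5 and 15.0 for SPP1. The C1q subunit genes stood at 12.5 (C1QB), 9.88 (C1QC) and 7.37 (C1QA), and TYROBP at 7.98, P2RY12 at 7.31, CX3CR1 at 6.42 and SPI1 at 6.29. The lowest were CD86 at 0.429 and MRC1 at 0.295 RPKM. Each gene overlapped with the next in this order over the 12 libraries, for LPL and CTSD because of Sham 4 alone. LPL, CTSD, AXL, GAS6, MERTK and SPP1 are also made by neurons, astrocytes or vascular cells, so their level is not that of microglia alone.

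**Figure D3:**
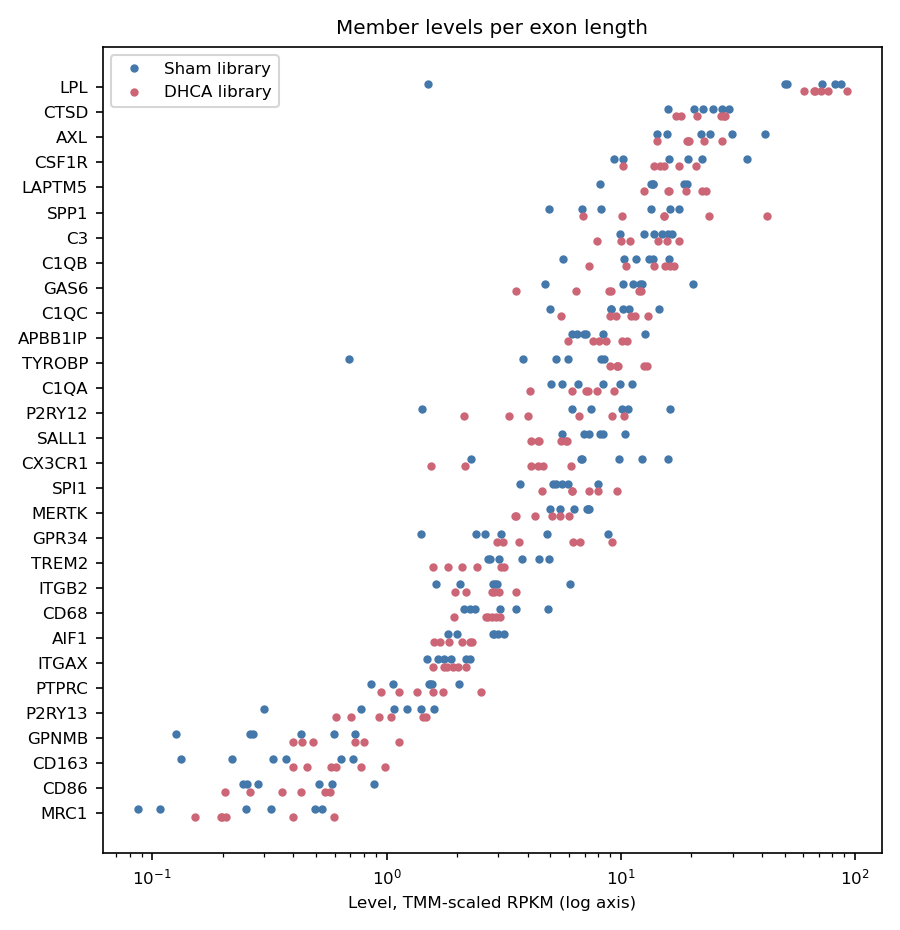
Level per exon length (TMM-scaled RPKM, log x axis) of the 30 members, ordered by their mean; each point is a library, sham in blue and DHCA in red. LPL at a mean of 64.9 RPKM and MRC1 at 0.295 are the ends of the order, and a single sham point of LPL, Sham 4, lies far to the left.

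The members did not vary as one block between libraries. Sham 1 was the highest of 12 libraries for 7 members and the lowest for 6. Compared with the median of the other 5 sham libraries, it was over 2-fold higher in CSF1R, ITGB2 and CD86, and over 2-fold lower in CX3CR1, P2RY12, P2RY13, GPR34, TYROBP and GPNMB. Sham 2 went the other way for CX3CR1, P2RY12 and GPR34, over 2-fold higher, and for CSF1R, over 2-fold lower. Sham 2 was also over 2-fold lower in GAS6 and over 2-fold higher in SPP1. For SPP1, Sham 1 was high too, at 43.4 CPM against 47.6 CPM in Sham 2. Sham 4 and DHCA 3 were the lowest of the 12 for 6 members each. The part of depth and mitochondrial share in the Sham 1 pattern was not tested.

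**Figure D4:**
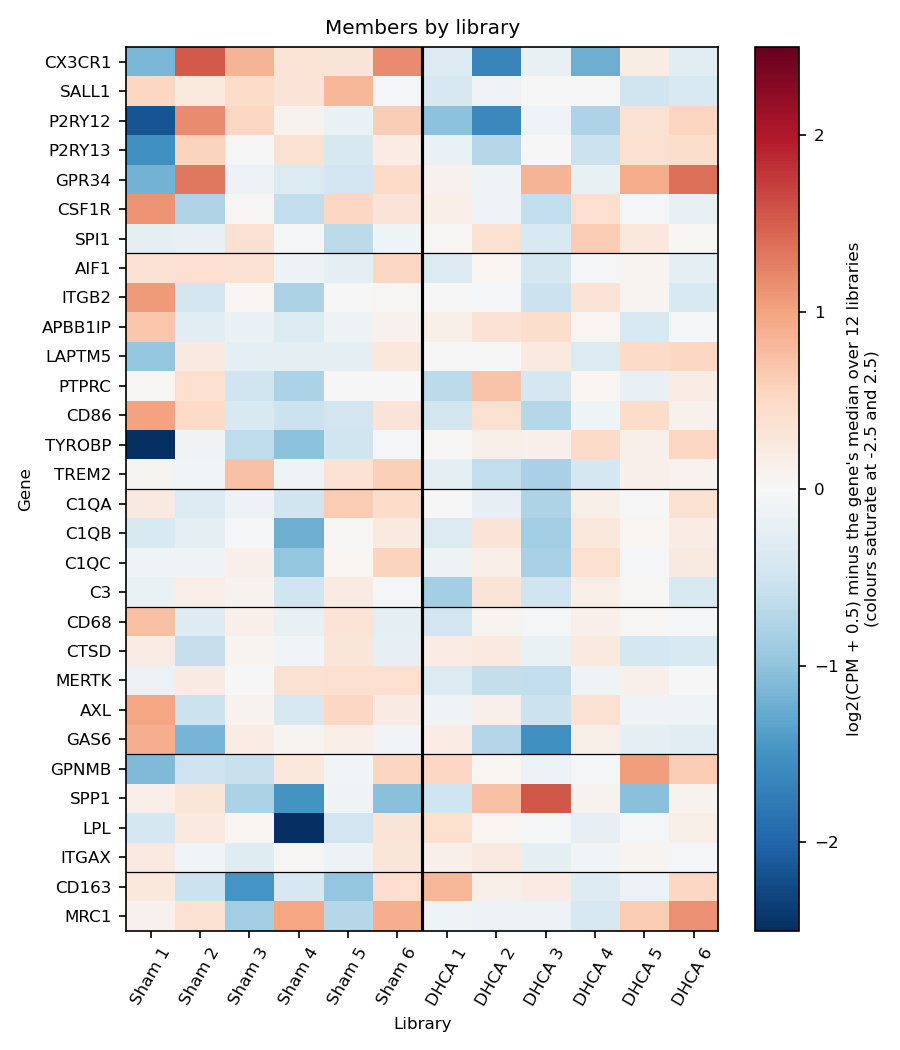
Each row is a member and each column a library; colour is log2(CPM + 0.5) minus the gene's median over the 12 libraries. Sham 1 is blue for P2RY12, P2RY13, GPR34 and TYROBP but red for CSF1R and ITGB2, and LPL is dark blue in Sham 4.

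Ratios between members of one library compare genes with the total scaling taken out. Among all 435 pairs of members, the ratio did not overlap between groups in 12 pairs (2.76%), where this held for 1.16% of all pairs of tested genes. The pairs share genes and were examined after the values were seen, so no test is given. Of the 12 pairs, 6 involved TYROBP, which by itself did not overlap between groups, and 4 involved CX3CR1. Among the 105 pairs of homeostatic and general myeloid members, 8 did not overlap (7.62%). Overlap was judged on CPM with 0.5 added, while the ratios given below have nothing added.

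The ratio of CX3CR1 to GPR34, both receptor genes typical of microglia, was 1.40 to 2.73 in sham and 0.415 to 0.962 in DHCA, with medians of 2.21 and 0.630. CX3CR1 to P2RY13 was 2.24 to 4.64 in sham and 1.17 to 2.06 in DHCA. CX3CR1 to TYROBP was 4.80 to 14 in sham and 0.675 to 2.69 in DHCA. These 3 ratios were taken from the 12 pairs of members whose groups did not overlap. That every DHCA library lay below every sham library in them therefore follows from the choice. Sham 1 was low in CX3CR1 itself. The Sham 1 ratios rest on few counts: 14 for CX3CR1, 10 for GPR34, 4 for P2RY13 and 1 for TYROBP. TYROBP to TREM2 was 0.0455 to 0.585 in sham and 0.600 to 1.21 in DHCA, a narrow gap. The value of 0.0455 is that of Sham 1, with 1 TYROBP and 22 TREM2 counts. C1QB to C1QC, which overlapped between the groups, stayed between 1.01 and 1.39 in all 12 libraries.

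**Figure D5:**
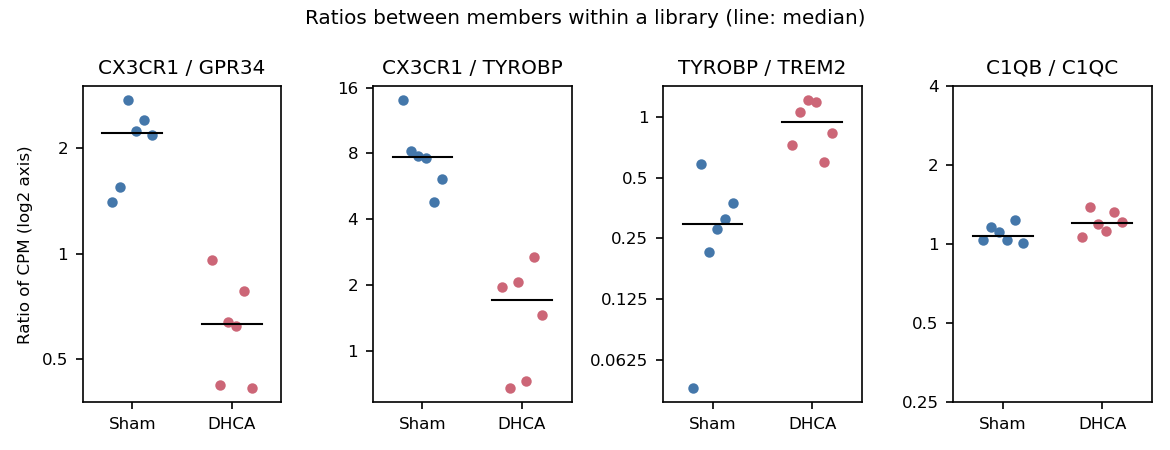
Ratio of CPM between pairs of members within each library (log2 y axis); points are libraries and the line is the group median. CX3CR1 over GPR34 and over TYROBP, pairs picked because they did not overlap, is lower in all 6 DHCA libraries than in any sham library. C1QB over C1QC stays between 1.01 and 1.39.

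The genes around these members were read from lists by pathway. The lists were chosen with earlier results of these data known, so their shares are no test. Of 13 tested ligands and receptors that neurons and other cells use to address microglia, 0 passed the edgeR test and 0 had an unadjusted p under 0.05. CD47, the "do not eat me" signal, had the smallest p (0.50, SE 0.27), followed by TGFBR2 (0.18, SE 0.14) and PROS1, also a ligand of MERTK (0.39, SE 0.33). Of 15 tested complement cascade genes, 0 passed and 1 had an unadjusted p under 0.05, which is 6.67% higher against 3.43% of all tested genes. That gene was C5AR1, the receptor of the C5a fragment, with 2.00 to 5.33 CPM in sham and 5.29 to 8.39 CPM in DHCA (0.78, SE 0.23, edgeR adjusted p = 0.296). The C1 inhibitor gene SERPING1 had 0.79 (SE 0.40) and CFD, factor D of the alternative pathway, -0.63 (SE 0.36).

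Of 33 tested phagocytosis and lysosome genes, 0 passed, while 4 had an unadjusted p under 0.05, of which 1 was higher (3.03%, against 3.43% of all tested genes) and 3 lower (9.09%, against 4.47%). CTSC, a lysosomal protease gene, had 0.63 (SE 0.24), GUSB, a lysosomal glucuronidase gene, -0.53 (SE 0.21), and FCGR1A, a high-affinity antibody receptor gene, -0.52 (SE 0.22). Of 37 tested myeloid signalling genes, 0 passed, while 12 had an unadjusted p under 0.05. Of these, 9 were higher (24.3%, against 3.43%) and 3 lower (8.11%, against 4.47%). As this list too was chosen with earlier results of these data known, these shares are no test. HAVCR2, the inhibitory receptor TIM-3, had 9.69 to 32.8 CPM in sham and 30.1 to 72.0 CPM in DHCA, with only Sham 6 in the DHCA range (1.57, SE 0.33, edgeR adjusted p = 0.0822). CSF2RB, the shared receptor chain for GM-CSF, had 2.56 to 7.10 CPM in sham and 7.37 to 24.0 CPM in DHCA (1.38, SE 0.35). It was the 1 of these 37 genes whose groups did not overlap, which was found upward in 0.678% of all tested genes. NCF1, a subunit of the phagocyte oxidase, had -1.53 (SE 0.44).

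Markers of other cell types that striatal tissue could hold were summed per library. These lists too were chosen with earlier results of these data known, so their shares are no test. The 7 neutrophil genes found took 0.000491% to 0.00147% of counts in sham and 0.000718% to 0.00133% in DHCA, and only 2 of them passed the filter. Of 12 lymphocyte genes, 6 passed it, and their sum was 0.00135% to 0.00517% in sham and 0.0015% to 0.00274% in DHCA. CD3E was at 0 counts in 5 libraries and MS4A1, a B cell marker, in 9. Of 7 monocyte genes found, 4 passed it. All 4 had positive fold changes (median 0.43), as did 49.5% of all tested genes. Of the 4, 1 had an unadjusted edgeR p under 0.05 (25% higher, against 3.43% of all tested genes). The monocyte sum was 0.0152% to 0.0473% in sham and 0.0278% to 0.0487% in DHCA, most of it VCAN, which oligodendrocyte precursors also make. CD14, shared by monocytes and microglia, had 1.08 (SE 0.35), while CCR2, the defining monocyte receptor gene, had 23 counts in all and 0 in 4 libraries. The 8 border macrophage genes found, among which STAB1 had the most counts, took 0.00646% to 0.0129% in sham and 0.00727% to 0.0122% in DHCA. The 8 red cell and platelet genes found took 0.0196% to 0.0410% in sham and 0.0175% to 0.0251% in DHCA. The beta-globin gene HBB, the red cell gene among them, ranged over 33.0 to 229 CPM in the sham and 24.6 to 62.4 CPM in the DHCA libraries (-1.64, SE 0.39, edgeR adjusted p = 0.14). Vascular cells can also make AXL, GAS6 and MERTK. Of 8 endothelial genes, 4 were lower at an unadjusted edgeR p under 0.05 (50%, against 4.47% of all tested genes). At that threshold 1 was higher (12.5%, against 3.43%), and the median fold change was -0.53. The endothelial genes took 0.0261% to 0.0528% of counts in sham and 0.0285% to 0.0369% in DHCA. Of 8 mural cell and fibroblast genes, 3 were lower at that threshold (37.5%, against 4.47%) and 0 higher, with a median of -0.32. Their sum was 0.0317% to 0.0655% in sham and 0.0371% to 0.0493% in DHCA. None of these 16 genes passed the edgeR test at an adjusted p of 0.05. The part of these cells in the member values was not tested.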

How the data were processed

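RNA-seq libraries of 12 piglets were grouped by their titles. Per the file headers, the authors counted reads per gene over exons with featureCounts 1.5.1 and the Sscrofa11.1 annotation, without a strand option, and no source used here names the aligner. The deposited counts are raw. The table has 6 further library columns, which were not used. The authors' deposited comparison table gives a normalized signal averaged over libraries, a log2 fold change, a test statistic (a score), a p-value and an adjusted p-value, per the file headers; the submitters' processing notes name DESeq2. Its sign was read as DHCA minus sham from its correlation with the values computed here (0.967 across 14004 genes).

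In R 4.3.3, genes were filtered with filterByExpr, scaled by TMM and tested with edgeR 4.0.16 (glmQLFit, robust, glmQLFTest, group only). P-values were adjusted by Benjamini-Hochberg over 14004 genes, with a threshold of 0.05. The standard error comes from the F statistic, and intervals at 95% use it with the fitted degrees of freedom. Alternatives were DESeq2 1.42.0, limma-voom (limma 3.58.1), DESeq2 size factors, other filters, a block by title number, a threshold of 0.1 and leaving out libraries. The steps were tested on simulated data. A level of 1 CPM rests on 1.5 counts in Sham 5 but on 13.7 in Sham 6, which limits members of a few CPM.

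Members take the gene ID with most counts of that name in the authors' deposited table; context genes may also take the reference table's names. The text names all members, the called genes and the 3 genes with the smallest p of each pathway list, and marker genes with most counts; CCR2, CD14, CD3E, MS4A1, HBB and the pairs for the ratios were singled out after their values were seen. Members, lists and the libraries left out together were chosen with earlier results of these data known. No reference sequence was used here.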

Additional observations from a re-analysis of the deposited data

Results flagged for a closer look

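Within each group of 6 libraries, the highest or lowest CPM of a member was compared with the rest by the size of its gap relative to the range. Among 60 such sets (30 members in 2 groups), 3 held a library that stood apart. Chance alone gives about 1 in 20, so this count is no more than chance gives. The rule did not flag LPL in Sham 4, at 6.96 CPM against 232 to 402 CPM in the other sham libraries. ITGB2 was at 50.02 CPM in Sham 1, with the next sham library at 24.4 CPM. APBB1IP was at 40.3 CPM in Sham 1, with the next at 26.7 CPM. CD68 was at 3.23 CPM in DHCA 1, below the next DHCA library at 4.46 CPM; the values rest on 33 and 29 counts.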

How the results depend on the processing

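The count of member genes called stayed at 0 in the alternatives run, except the DESeq2 Wald test, which called 1 (SALL1, log2 fold change -0.61, adjusted p = 0.041). Over all genes, 26 were called in edgeR, 179 with the DESeq2 Wald test, 8 with a replicate block, 55 at a threshold of 0.1, 12 without Sham 1 and Sham 5, 1 without Sham 1, Sham 4 and Sham 5, and 9 to 51 without 1 library. The title numbers are not shown to pair animals: deviations of same-numbered libraries correlated at -0.39 to 0.34, and no call of a member changed with the replicate block, under which LPL was 0.70. The median of the members ranged from -0.15 to 0.019 without 1 library and was 0.11 without Sham 1 and Sham 5.

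In 16 of 30 members the sign held in all 20 alternatives, CX3CR1, SALL1, TYROBP, TREM2, MERTK and AIF1 among them. The other 14 were called in no fit and changed sign in some. Without Sham 1 and Sham 5 the values were 0.10 for AXL, 0.036 for C1QA, 0.13 for CD68, 0.17 for CSF1R, 0.15 for CTSD and 0.20 for ITGB2. Without Sham 1, Sham 4 and Sham 5 they were 0.019 for AXL, -0.035 for C1QB, -0.21 for C1QC, 0.11 for CD68, 0.048 for CSF1R, 0.18 for CTSD, -0.099 for GPR34, 0.051 for ITGB2, -0.15 for LPL and -0.013 for PTPRC. CTSD was 0.0011 with DESeq2, 0.00059 with limma-voom and 0.023 with no filter, and ITGAX -0.0081 with DESeq2 size factors. Without 1 library, C1QC ranged from -0.12 to 0.18, CD68 from -0.21 to 0.047, CTSD from -0.094 to 0.068, ITGAX from -0.054 to 0.073, ITGB2 from -0.29 to 0.15, MRC1 from -0.49 to 0.026, P2RY13 from -0.29 to 0.034 and PTPRC from -0.084 to 0.26. Apart from the libraries left out, the cause was not tested. Depth limits GPNMB, CD86, CD163 and MRC1 most, the members with the lowest CPM, 1 to 2 counts in some libraries.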
